A study of Mus musculus with 6 samples.

Results

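Genes of the Wnt pathway were followed in the medial ganglionic eminence (MGE) of mouse embryos at embryonic day 12.5, in Sp9 null embryos and wild type littermates. The MGE is the part of the ventral forebrain that generates many cortical interneurons, and Sp9 is a zinc finger transcription factor of its precursors and young neurons. The genes were chosen by a rule on symbols that used no measured values, although earlier results of these data were known. They comprised the Wnt ligands, the Frizzled (Fzd) receptors, Lrp5 and Lrp6, and the R-spondins (Rspo1 to Rspo4). The secreted inhibitors were Sfrp1, Sfrp2, Sfrp4, Sfrp5, Dkk1 to Dkk4 and Notum. The intracellular components were Ctnnb1, Axin1, Axin2 and Nkd1, and the factors were Lef1, Tcf7, Tcf7l1 and Tcf7l2. The rule found 52 of the 34745 genes in the table.

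RNA-seq was available from 3 Sp9-/- libraries and 3 wild type libraries, and all embryos had a mixed C57BL/6J, 129S6 and CD1 background. The labels name no Cre driver or other agent. The labels do not say whether the 3 samples of a genotype came from separate embryos, or from how many litters, so p-values describe only how much these libraries vary, and some of that variation may be technical. Bulk tissue was sequenced, so fewer cells of a type and less RNA per cell cannot be told apart.

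In canonical Wnt signalling a secreted Wnt binds a Frizzled together with Lrp5 or Lrp6, the destruction complex built on Axin is inhibited, and beta-catenin (Ctnnb1) accumulates and acts with TCF/LEF factors on target genes. R-spondins amplify the signal, whereas Sfrp and Dickkopf (Dkk) proteins are mostly inhibitors. In the embryonic forebrain the pathway is best known for patterning from the dorsal midline, for regional identity along the front-to-back axis, and for the growth of brain blood vessels.

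Library totals lay between 6826447 and 10979280 counts in the Sp9 null libraries and between 9536050 and 10914147 in wild type. The targeted gene checked the labels. Sp9 stood at 13.0, 10.6 and 12.5 CPM (a gene's count scaled to a library total of 1000000) in Sp9 null replicates 1, 2 and 3, against 203, 247 and 189 CPM in wild type, a log2 fold change of -4.13 with an adjusted p of 2.54e-05. The largest component of variation, with 51.8% of the variance, did not separate the genotypes but set replicate 2 of both apart from the other 4 libraries. The second component, with 23.1%, did separate the genotypes, with all Sp9 null libraries below 0 and all wild type libraries above 0. Markers of the dissected region were present in every library. The summed level of 10 MGE and ventral forebrain markers was 4705 to 4833 CPM in Sp9 null and 4114 to 4332 CPM in wild type. Members of that list moved in both directions. Dlx1 averaged 1469 CPM in Sp9 null and 923 CPM in wild type (log2 fold change 0.69, adjusted p 0.0340), whereas Lhx6 (-0.46) and Gad1 (-0.79) were lower in all 3 Sp9 null libraries and called with the block.

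Of the 52 genes, 29 passed the expression filter and were tested. None was called at an adjusted p under 0.05 when genotype was the only term, which called 22 of all 14929 genes tested, 0.147% of them. At an unadjusted p under 0.05 the count was 4 of 29, namely Fzd1, Fzd5, Sfrp4 and Wnt7a, beside 5.91% of all genes. With the replicate number as a block, 1 of the 29 was called, Fzd1, which was higher in Sp9 null. That fit called 4.0% of all genes, 2.22% as higher and 1.78% as lower, while the unblocked fit had called 0.0469% as higher and 0.1% as lower. The count at an unadjusted p under 0.05 was 5 of 29 with the block, Fzd10 being the addition, beside 17.2% of all genes. DESeq2, a second count test, called none of the 29 with or without the block. With the block it called 1.09% of all genes.

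The distribution of differences over the 29 genes was close to that over all genes. The median log2 fold change, Sp9 null over wild type, was -0.0043 for the 29 and -0.0046 for all 14929. Their median sizes without regard to sign were 0.119 and 0.120. There were 14 values above 0 and 15 below, and 27 of the 29 were smaller than 0.5 in size, as were 93.6% of all genes. The 95% interval lay within 1 log2 unit of 0, a change of at most 2-fold, for 24 genes, and within 1.5-fold for 19. Changes larger than that were thus outside the interval for most of the genes. The remainder included genes low in counts or variable between replicates. It also included Fzd5, with an interval of 0.09 to 0.80 around a fitted value of 0.45.

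**Figure D1:**
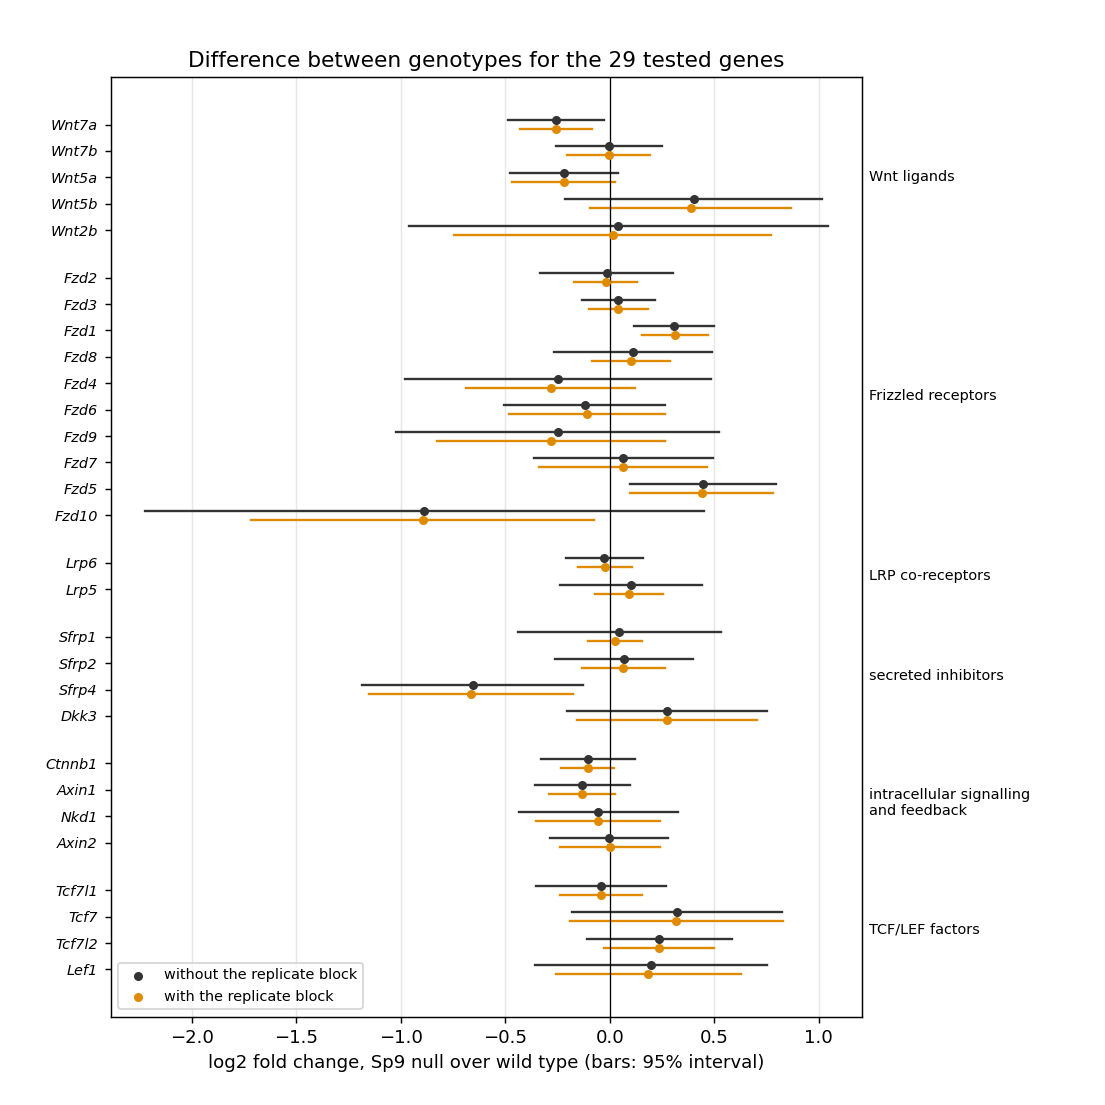
Log2 fold change of each of the 29 tested genes, Sp9 null over wild type (horizontal axis), grouped by role, with 95% intervals, without the replicate block (black) and with it (orange). Fzd1, at 0.31 in both fits, is the only gene called, and only with the block, while Fzd10 at -0.89 has the widest unblocked interval.

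The ligands fell into a clear order of levels. Per length of transcript, Wnt7a was the most abundant, at 11.6 ± 0.479 FPKM (fragments per kilobase of transcript, scaled to the library total) in Sp9 null and 14.1 ± 1.27 FPKM in wild type (SD, n = 3 each). Wnt7b followed with 8.51 ± 0.607 FPKM in Sp9 null and 8.67 ± 0.881 FPKM in wild type. Both ligands are known to act on the endothelium of the developing brain, where they are needed for vessels to grow into the neural tissue. Wnt5a, the standard ligand of non-canonical signalling, was at 1.47 ± 0.041 FPKM in Sp9 null and 1.74 ± 0.126 FPKM in wild type. Wnt5b had means of 0.927 FPKM in Sp9 null and 0.719 FPKM in wild type, and Wnt2b means of 0.405 FPKM in Sp9 null and 0.415 FPKM in wild type. Over the 6 libraries the ranges of neighbours in this order did not overlap. Wnt7a alone made up 49.5% to 50.7% of the summed FPKM of all Wnt genes in Sp9 null libraries and 49.4% to 56.5% in wild type, and Wnt7b 35.1% to 37.5% in Sp9 null and 30.8% to 37.3% in wild type.

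Wnt7a was below wild type in all 3 Sp9 null libraries. It stood at 44.7, 44.9 and 41.7 CPM in Sp9 null replicates 1, 2 and 3, against 53.6, 57.6 and 48.1 CPM in wild type. The log2 fold change was -0.26 (SE 0.10, 95% interval -0.49 to -0.03), with an unadjusted p of 0.0312 and an adjusted p of 0.801. With the block the value was -0.26 and the adjusted p 0.0788, which also missed the threshold. The groups did not overlap, but an exact two-sided permutation test of 3 against 3 libraries cannot go below 0.1, the value it gave. The summed level of 8 endothelial markers was 208 to 238 CPM in Sp9 null and 212 to 244 CPM in wild type, and none of the 8 was called in either fit.

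The other ligands varied as follows. Wnt5a had 19.0, 18.4 and 18.03 CPM in Sp9 null, against 20.4, 23.5 and 21.5 CPM in wild type, again with no overlap. The fitted log2 difference was -0.22 (SE 0.11) and the adjusted p 0.897. Wnt7b, the next ligand in level after Wnt7a, overlapped between the groups. It had 38.8, 39.3 and 34.5 CPM in Sp9 null, against 35.2, 36.9 and 42.7 CPM in wild type, with a log2 fold change of -0.006 (SE 0.11, 95% interval -0.26 to 0.25). The ratio of Wnt7a to Wnt7b FPKM was 1.34 to 1.42 in Sp9 null and 1.32 to 1.83 in wild type.

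Wnt5b, a relative of Wnt5a, was at 3.96, 6.74 and 4.98 CPM in Sp9 null, against 3.36, 4.58 and 4.23 CPM in wild type, which gave 0.40 on the log2 scale (SE 0.27, adjusted p 0.903). Wnt2b, a ligand known from the dorsal midline of the forebrain, was at 0.732, 2.55 and 2.33 CPM in Sp9 null, against 2.097, 1.74 and 1.92 CPM in wild type. Its log2 fold change of 0.04 had a 95% interval of -0.96 to 1.04, so a change of nearly 2-fold in either direction could not be told from none at this depth.

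The remaining 14 Wnt genes did not pass the filter. Wnt3 came nearest, with 4, 1 and 13 counts in Sp9 null and 8, 7 and 9 counts in wild type. Wnt4 reached at most 4 counts in a library, and Wnt8b had none in Sp9 null and 0, 4 and 1 in wild type. At most 3 counts were seen in any library for Wnt9a, Wnt10a, Wnt10b, Wnt11 and Wnt16. Wnt1, Wnt2, Wnt3a, Wnt6, Wnt8a and Wnt9b had 0 counts in all 6 libraries. A count of 0 allows up to 3 counts, which is 0.273 to 0.439 CPM in these libraries and covers counting error only. Wnt3a is a defining ligand of the cortical hem at the dorsal edge of the telencephalon, a region outside the MGE. The summed level of 8 markers of hem, roof plate and choroid plexus was 40.3 to 48.8 CPM in Sp9 null and 35.0 to 44.8 CPM in wild type. Most of it was Otx2. Foxj1 was at 2.64, 4.01 and 4.03 CPM in Sp9 null, against 3.15, 3.66 and 5.85 CPM in wild type. The others, Lmx1a, Msx1, Msx2, Ttr, Bmp4 and Gdf7, were each under 1 CPM in every library.

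**Figure D2:**
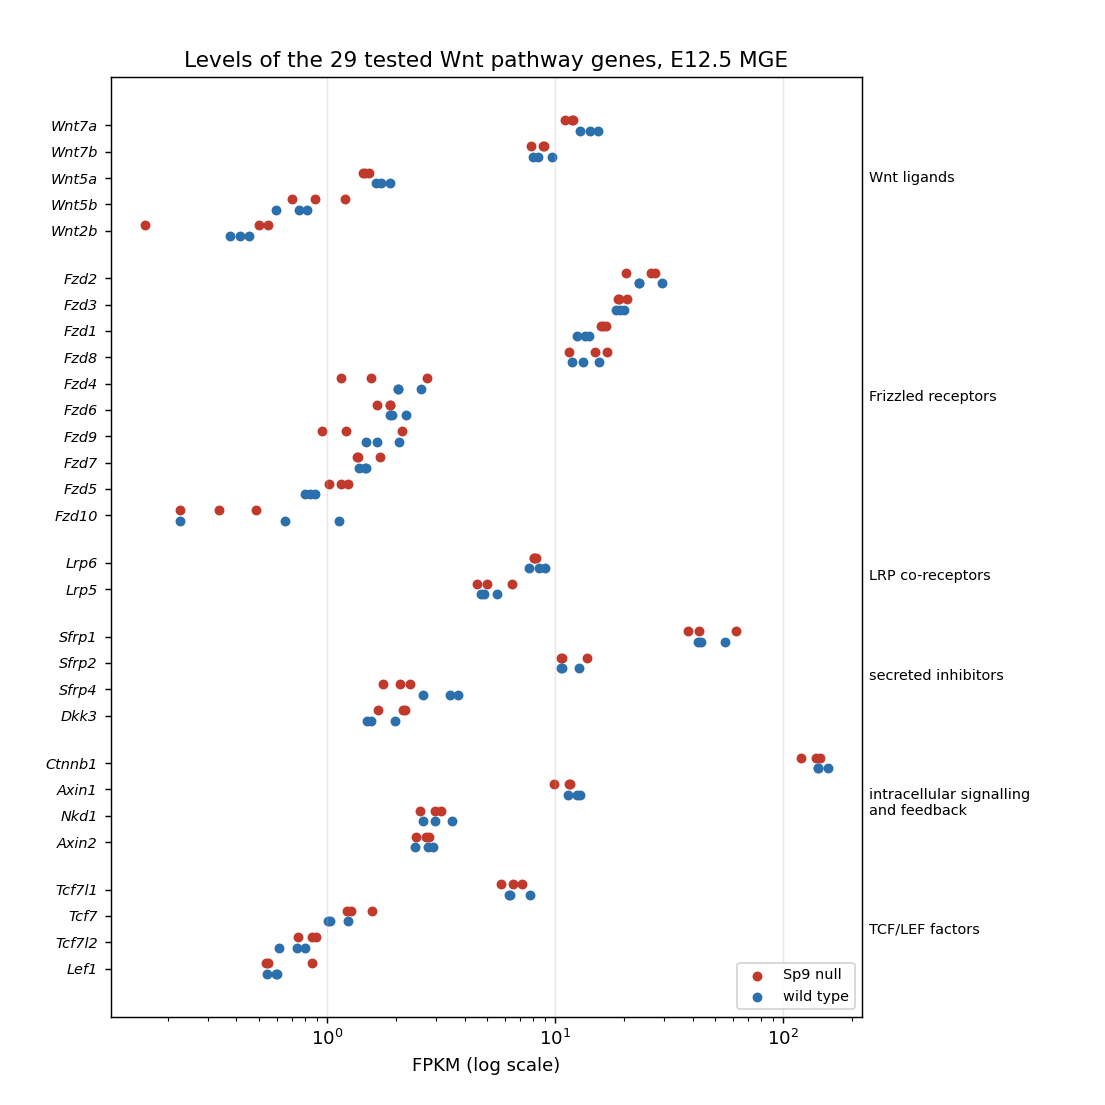
FPKM of the 29 tested genes in each of the 6 libraries on a log axis, grouped by role, with Sp9 null libraries in red and wild type in blue. Over all roles the genes span a wide range, including Ctnnb1 at 134 and 147 FPKM (means of Sp9 null and wild type) and Fzd10 at 0.350 and 0.668. The genotypes mostly overlap.

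All 10 Frizzled receptors were tested, so the tissue had transcripts of the whole family. Fzd2, Fzd3, Fzd1 and Fzd8 formed a high group. Fzd2 was at 24.7 ± 3.70 FPKM in Sp9 null and 25.2 ± 3.48 FPKM in wild type, and Fzd8 at 14.4 ± 2.69 FPKM in Sp9 null and 13.6 ± 1.93 FPKM in wild type (SD, n = 3 each). The next gene down, Fzd4, averaged 1.82 FPKM in Sp9 null and 2.23 FPKM in wild type. Over the 6 libraries the ranges of Fzd4, Fzd6, Fzd9 and Fzd7 overlapped from each to the next. Fzd5 was below Fzd7 in every library and overlapped with Fzd10, the lowest. In the high group, the ranges of Fzd2 and Fzd3 overlapped and those of Fzd1 and Fzd8 overlapped, while Fzd3 was above Fzd1 and Fzd8 above Fzd4 in every library.

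Fzd1 was the only one of the 29 genes called in any fit of all 6 libraries. In Sp9 null replicates 1, 2 and 3 it stood at 70.0, 68.2 and 66.3 CPM, against 58.8, 52.1 and 56.9 CPM in wild type. All Sp9 null libraries were thus above all wild type libraries, at 1.24-fold by the fitted difference. The log2 fold change was 0.31 (SE 0.08, 95% interval 0.12 to 0.50), with an unadjusted p of 0.0061 and an adjusted p of 0.542. With the block it was 0.31 (SE 0.08) with an adjusted p of 0.0149. That call was lost without the pair of libraries numbered 2 (0.25, adjusted p 0.358), without the pair numbered 3 (0.34, adjusted p 0.114) and in DESeq2 with the block (adjusted p 0.295). It remained without the pair numbered 1 (0.34, adjusted p 0.00973), a fit that called 7.89% of all genes. As a share of the summed Frizzled FPKM, Fzd1 took 18.7% to 20.9% in Sp9 null and 14.3% to 18.3% in wild type.

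Fzd5, a receptor known for its part in eye development, was also above all wild type libraries. It had 11.3, 10.02 and 12.1 CPM in Sp9 null, against 7.86, 8.70 and 8.27 CPM in wild type. The log2 fold change was 0.45 (SE 0.15, 95% interval 0.09 to 0.80), with an unadjusted p of 0.0191 and an adjusted p of 0.750, or 0.147 with the block. Fzd1 and Fzd5 were 2 of the 5 genes of the 29 whose genotypes did not overlap, the others being Wnt7a, Wnt5a and Sfrp4, all lower in Sp9 null. Over all genes 13.0% did not overlap, 4.95% above and 8.06% below wild type. For Fzd1, Fzd5, Wnt7a and Sfrp4 the exact permutation p was 0.1, the smallest this design allows.

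**Figure D3:**
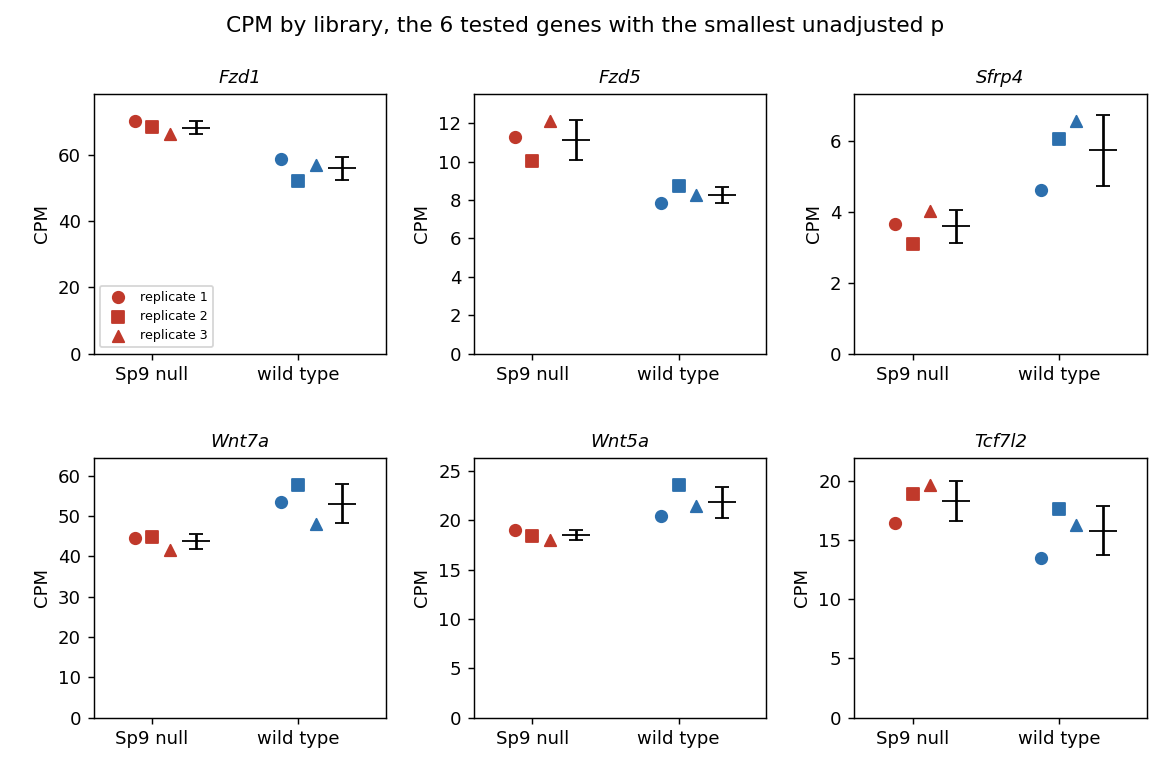
CPM in each library for the 6 tested genes with the smallest unadjusted p, with Sp9 null left of wild type, marker shape giving the replicate number and the bar giving mean and SD (n = 3). Fzd1 and Fzd5 lie higher in all Sp9 null libraries and Sfrp4, Wnt7a and Wnt5a lower, while Tcf7l2 overlaps, at 16.4 to 19.6 CPM in Sp9 null and 13.5 to 17.6 CPM in wild type.

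Among the low Frizzleds, Fzd10, Fzd9 and Fzd4 were too variable for small differences to be seen. Fzd10 had 5, 12 and 15 counts in Sp9 null and 7, 40 and 21 counts in wild type. The log2 fold change of -0.89 had a 95% interval of -2.23 to 0.45, and with the block an unadjusted p of 0.0334 and an adjusted p of 0.236. Without wild type replicate 2 the value was -0.27.

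Fzd4, which besides Wnts binds the vascular ligand Norrin, was at 4.25, 10.1 and 5.73 CPM in Sp9 null, against 7.55, 9.53 and 7.56 CPM in wild type, a log2 fold change of -0.25 (SE 0.32). Fzd9 was at 2.78, 2.19 and 4.88 CPM in Sp9 null, against 3.78, 3.39 and 4.74 CPM in wild type, also a log2 fold change of -0.25 (SE 0.33). The values of both genes overlapped between genotypes. For the most abundant receptor, Fzd2, the log2 fold change was -0.01 (SE 0.14). It had 100.2, 95.8 and 74.9 CPM in Sp9 null, against 84.8, 107 and 85.2 CPM in wild type. Fzd3, known in axon guidance, gave 0.04, Fzd8 0.11, Fzd7 0.06 and Fzd6 -0.12 on the same log2 scale, and none of them had an unadjusted p under 0.05 in either fit.

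The co-receptors Lrp5 and Lrp6 were both well expressed. Lrp6 was at 8.12 ± 0.108 FPKM in Sp9 null and 8.39 ± 0.668 FPKM in wild type, and Lrp5 at 5.33 ± 1.001 FPKM in Sp9 null and 5.06 ± 0.451 FPKM in wild type (SD, n = 3 each). Lrp6 was above Lrp5 in every library. In CPM, Lrp6 had 129, 125 and 126 in Sp9 null, against 132, 120.0 and 141 in wild type. Its log2 fold change of -0.03 carried one of the narrower 95% intervals, -0.21 to 0.16. That of Lrp5 was 0.10 (SE 0.15).

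The promoters of the genes with the smallest unadjusted p were read where RefSeq gave a sequence, which it did for 34 of the 52 genes, in 43 windows of 250 bases before the start site (GRCm38.p6). They are shown for Fzd1 and Fzd5, higher in Sp9 null, and Wnt7a, lower, so that their makeup can be compared. Each gene lies on the minus strand, and the windows are chr5:4758217-4758466 for Fzd1, chr1:64737751-64738000 for Fzd5 and chr6:91411354-91411603 for Wnt7a, written 5′ to 3′ along the gene. Capitals mark GC boxes (GGGCGG on either strand, a motif known for zinc finger factors of the Sp family) and the TCF/LEF core (CTTTGA on either strand).
Fzd1: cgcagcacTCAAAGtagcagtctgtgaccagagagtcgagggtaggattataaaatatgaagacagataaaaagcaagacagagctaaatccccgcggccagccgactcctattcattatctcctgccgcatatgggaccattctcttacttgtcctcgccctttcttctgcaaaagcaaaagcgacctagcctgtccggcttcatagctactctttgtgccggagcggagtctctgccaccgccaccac
Fzd5: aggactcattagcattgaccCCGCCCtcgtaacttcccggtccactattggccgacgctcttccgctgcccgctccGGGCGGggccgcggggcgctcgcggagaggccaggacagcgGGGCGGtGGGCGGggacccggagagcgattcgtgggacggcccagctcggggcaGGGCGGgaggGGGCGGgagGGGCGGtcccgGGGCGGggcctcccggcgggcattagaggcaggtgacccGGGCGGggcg
Wnt7a: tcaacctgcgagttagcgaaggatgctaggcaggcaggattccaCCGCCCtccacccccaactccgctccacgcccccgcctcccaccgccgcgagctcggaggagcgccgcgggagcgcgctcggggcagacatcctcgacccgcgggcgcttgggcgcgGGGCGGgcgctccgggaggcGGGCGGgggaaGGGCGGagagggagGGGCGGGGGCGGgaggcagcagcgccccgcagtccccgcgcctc
The Fzd5 window held 9 GC boxes and the Wnt7a window 6, while that of Fzd1 held none and 1 TCF/LEF core, on the reverse strand. GC content was 51.2% for Fzd1, 76.4% for Fzd5 and 77.6% for Wnt7a. Over the 43 windows of Wnt pathway genes 72.1% held a GC box, against 32.7% of all 32851 windows, but their median GC content was also higher, at 68.0% against 52.4%. The TCF/LEF core was in 11.6% of the 43 windows and in 13.8% of all. The matches describe letters and do not show binding.

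In the deposited table, on GRCm38, Fzd1 spans chr5:4753839-4758035, Fzd5 chr1:64730558-64737751, Wnt7a chr6:91363981-91411363 and Sfrp4 chr13:19623175-19632821. No tested Wnt pathway gene lies on chromosome 2, where Sp9 is.

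R-spondin transcripts were at or near the counting floor. Rspo2 had 0, 0 and 6 counts in Sp9 null and 3, 0 and 2 counts in wild type, and Rspo3 0, 0 and 4 in Sp9 null and 0, 1 and 2 in wild type. Rspo1 reached 2 counts at most, and Rspo4 had 0 in all 6 libraries. None of the 4 could be tested.

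Among the secreted inhibitors Sfrp1 was the most abundant, with 71.8% to 77.6% of the summed FPKM of that group in Sp9 null and 72.2% to 75.4% in wild type. Sfrp proteins resemble the Wnt-binding part of a Frizzled and can hold Wnts away from their receptors. Sfrp1 stood at 187, 271 and 167 CPM in Sp9 null, against 185, 241 and 190 CPM in wild type. Replicate 2 was highest in both genotypes and the log2 fold change was 0.05 (SE 0.20), with an SE of 0.06 in the blocked fit. Sfrp2, at 11.7 ± 1.76 FPKM in Sp9 null and 11.3 ± 1.20 FPKM in wild type (SD, n = 3 each), gave 0.07.

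Among the secreted inhibitors tested, Sfrp4 had the largest fitted difference. It was at 3.66, 3.10 and 4.03 CPM in Sp9 null, against 4.61, 6.05 and 6.55 CPM in wild type. No Sp9 null library reached the lowest wild type one. The log2 fold change was -0.66 (SE 0.23, 95% interval -1.18 to -0.13), with an unadjusted p of 0.0210 and an adjusted p of 0.765, or 0.119 with the block. Dkk3, a divergent Dickkopf, was at 2.003 ± 0.287 FPKM in Sp9 null and 1.68 ± 0.262 FPKM in wild type (SD, n = 3 each), a log2 fold change of 0.27 (SE 0.21). The classical Lrp6 antagonist Dkk1 had at most 1 count in any library, as did Dkk4 and Notum, an enzyme that inactivates Wnts. Sfrp5 had at most 3. Dkk2 had 4, 8 and 11 counts in Sp9 null and 4, 8 and 3 counts in wild type and was not tested.

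The intracellular genes included the readouts most often used for canonical signalling, and these did not pass any test. Axin2, a direct target that feeds back on the pathway, stood at 21.1, 23.3 and 24.0 CPM in Sp9 null, against 25.1, 23.8 and 20.9 CPM in wild type. Its log2 fold change was -0.004 with a 95% interval of -0.29 to 0.28. A change of 1.5-fold, which is 0.585 on the log2 scale, was thus outside the interval in either direction. Nkd1, a feedback inhibitor acting on Dishevelled, had 13.2, 14.0 and 11.3 CPM in Sp9 null, against 11.7, 15.7 and 13.2 CPM in wild type, with a log2 fold change of -0.05 (95% interval -0.43 to 0.33). Both genes overlapped between the genotypes.

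Ctnnb1, which encodes beta-catenin and also serves in cell adhesion, had the highest level of the 29 genes. It was at 1413, 1367 and 1175 CPM in Sp9 null, against 1385, 1534 and 1392 CPM in wild type. The fitted log2 difference was -0.10 (SE 0.10) and the adjusted p 0.933. Without the pair of libraries numbered 1, the blocked fit called it, at -0.17 with an adjusted p of 0.0220. Axin1, the constitutive scaffold of the destruction complex, was at 59.8, 59.3 and 50.8 CPM in Sp9 null, against 64.1, 66.1 and 58.6 CPM in wild type, a log2 fold change of -0.13 (SE 0.10).

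The TCF/LEF factors were led by Tcf7l1, which acts mostly as a repressor of Wnt targets and took 66.8% to 70.9% of the summed FPKM of the 4 factors in Sp9 null and 71.1% to 76.3% in wild type. It had 29.4, 36.5 and 33.4 CPM in Sp9 null, against 32.0, 39.7 and 32.4 CPM in wild type (log2 fold change -0.04, SE 0.13). The other 3 factors had fitted values above 0, and none of them passed a test. Tcf7 was at 5.27, 4.10 and 4.24 CPM in Sp9 null, against 3.46, 3.39 and 4.13 CPM in wild type (log2 fold change 0.32, SE 0.22). Tcf7l2, an activator in many tissues and a marker of the thalamus in the forebrain, was at 16.4, 18.9 and 19.6 CPM in Sp9 null, against 13.5, 17.6 and 16.2 CPM in wild type (0.24, SE 0.15). Lef1, both a mediator and a target of the pathway, was at 4.98, 7.92 and 5.09 CPM in Sp9 null, against 5.03, 5.50 and 5.55 CPM in wild type (0.20, 95% interval -0.36 to 0.75). Sp9 null replicate 2 was the highest library, and without it the Lef1 value was -0.08.

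A further 66 genes, taken from a list of the remaining components of the pathway, were also measured. Of these, 54 were tested and none was called without the block, with a median log2 fold change of -0.013. With the block 1 was called as higher and 2 as lower, beside 2.22% and 1.78% of all genes, so that the share called was near the background. Gpc4, a cell-surface glypican that binds Wnts and other ligands, was at 66.2, 70.2 and 57.5 CPM in Sp9 null, against 53.5, 49.0 and 44.3 CPM in wild type. Its blocked log2 fold change was 0.43 (adjusted p 0.000734), and DESeq2 with the block also called it (adjusted p 0.0428), but it was not called without the pair numbered 2 (adjusted p 0.151).

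Ror2, a receptor tyrosine kinase for Wnt5a, was at 1.90, 1.18 and 1.27 CPM in Sp9 null, against 4.19, 3.12 and 3.63 CPM in wild type. Its blocked log2 fold change was -1.32 (adjusted p 0.0137), the unblocked one -1.32 with an adjusted p of 0.345, and the Sp9 null libraries held 12 or 13 counts each. Celsr3, an atypical cadherin that works with Fzd3 in axon guidance, was at 285, 205 and 287 CPM in Sp9 null, against 334, 254 and 328 CPM in wild type (blocked log2 fold change -0.22, adjusted p 0.0196). Each pair was lower in Sp9 null for Celsr3, while the pooled groups overlapped. The calls of Ror2 and Celsr3 were both lost without the pair numbered 2 or the pair numbered 3, although the values stayed between -1.41 and -1.24 for Ror2 and between -0.25 and -0.19 for Celsr3. DESeq2 with the block called neither gene. Genes for Wnt secretion (Wls, Porcn), the destruction complex and its kinases, Dishevelled and its partners, and common targets such as Ccnd1 held no call in either fit. Of these groups, the target Sp5 and the Dishevelled partner Dact2 did not pass the filter. Sp5 had 0, 4 and 1 counts in Sp9 null and 5, 10 and 5 in wild type. Dact2 had 3, 0 and 4 counts in Sp9 null and 9, 3 and 4 in wild type. The secreted antagonist Frzb did not pass the filter either, with 3, 3 and 6 counts in Sp9 null and 15, 8 and 16 in wild type. Znrf3, a gene of receptor turnover, was above wild type in all 3 Sp9 null libraries (log2 fold change 0.47, unadjusted p 0.0279). Its adjusted p was 0.801, or 0.0543 with the block. Of the 54 genes, 2 lay above all wild type libraries and 6 below, beside 4.95% and 8.06% of all genes.

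The spread between libraries was shared between the genotypes for part of the genes. Replicate 2 was the highest library in both genotypes for 10 of the 29, namely Fzd4, Fzd7, Fzd8, Lrp5, Tcf7l1, Wnt7a, Wnt5b, Nkd1, Sfrp1 and Sfrp2, and over all genes this held for 22.5%. It was the lowest in both for 3, Fzd9, Lrp6 and Tcf7, against 28.4% of all genes. Sfrp1 in replicate 2 was 1.53 times the mean of the other Sp9 null libraries and 1.29 times that of the other wild type libraries, and Fzd4 2.03 times in Sp9 null and 1.26 times in wild type. Markers of neighbouring tissue moved with the same number. The summed level of 8 markers of the pallium was 8.93 CPM in Sp9 null replicate 2, against 32.4 and 54.0 CPM in the other Sp9 null libraries. In wild type it was 8.52 CPM in replicate 2, against 21.9 and 29.6 CPM. The difference lay in Tbr1, at 0.0911 CPM in Sp9 null replicate 2 and 0.641 CPM in wild type replicate 2, and in Eomes, while Emx2 was not the lowest there and the other 5 markers were under 1 CPM throughout. For 10 markers of diencephalon and hypothalamus it was 9.02 CPM in Sp9 null replicate 2 and 49.4 and 78.3 CPM in the others, and in wild type 13.4 CPM in replicate 2 and 45.7 and 55.2 CPM. With the block, Tbr1 (log2 fold change 0.81, adjusted p 0.0238) and the diencephalic marker Lhx1 (0.93, adjusted p 0.00282) were called as higher in Sp9 null. No other marker of these lists was called in either fit. The part of these tissues in the levels of the Wnt pathway genes was not tested.

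**Figure D4:**
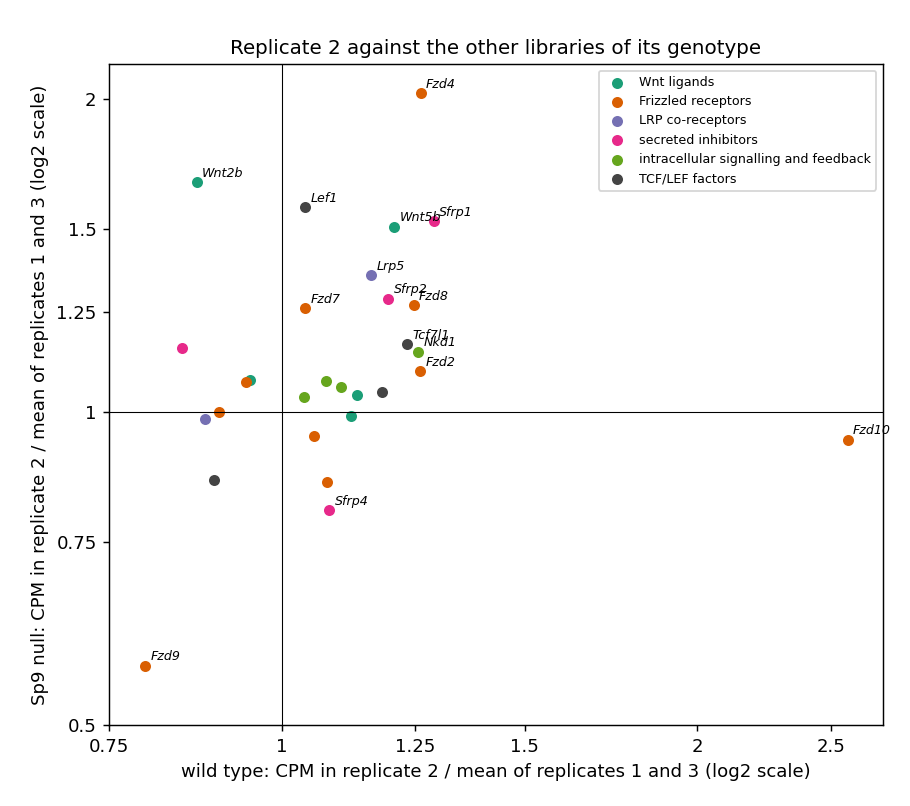
For each of the 29 tested genes, CPM in replicate 2 divided by the mean of replicates 1 and 3, in Sp9 null (vertical axis) against wild type (horizontal axis), both on log2-spaced axes. Genes in the upper right, such as Sfrp1 at 1.53 and 1.29, were higher in replicate 2 of both genotypes, and Fzd9, at 0.571 and 0.796, was lower in both.

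The summed level of 8 microglial markers was 8.17 to 12.9 CPM in Sp9 null, below the 29.5 to 35.0 CPM of wild type. Of the 6 tested, 5 were called as lower with the block and none without it, and Aif1 and Tyrobp were at 0 in Sp9 null replicate 3. Of 8 markers of the lateral ganglionic eminence and striatum, 4 had fitted log2 fold changes above 0 and 4 below, with a median of -0.0066, and Meis2, Six3 and Foxp1 were called as higher with the block. Some other groups overlapped between genotypes in their summed level. Markers of meninges and mesenchyme summed to 35.0 to 37.2 CPM in Sp9 null and 30.9 to 39.1 CPM in wild type. Erythroid genes gave 771 to 1152 CPM in Sp9 null and 733 to 1132 CPM in wild type. Of the 6 erythroid genes tested, 2 were called as higher with the block and none without it. The largest unblocked log2 fold change among them was 1.19. Mitochondrial genes took 2.32%, 3.43% and 3.41% of counts in Sp9 null replicates 1, 2 and 3 and 2.20% to 2.28% in wild type. Whether the microglial, ganglionic, pallial, diencephalic, erythroid or mitochondrial differences have a part in the values of Fzd1, Fzd5, Wnt7a, Sfrp4, Gpc4, Ror2 or Celsr3 was not tested.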

How the data were processed

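Per the file headers, the deposited table gives for each library a whole-number read count per gene and an FPKM value. TopHat, Cufflinks 2.1.1 and the build GRCm38.p4 are named, without roles, in the submitters' processing notes. The counting program and its strand setting were not given in the sources used here, so reads of overlapping, antisense or near-identical genes may be shared. Each deposited FPKM value equalled the count over 1 length per gene and the library total, within 0.001, for 21180 of 21180 genes counted in 2 or more libraries. Coordinates are those of the table; 38 of the 52 genes had the same start and end in GENCODE M21.

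The test was edgeR's quasi-likelihood test on counts (edgeR 4.0.16, R 4.3.3), two-sided and robust, after TMM scaling and filterByExpr at its defaults, with Benjamini-Hochberg adjustment over all 14929 genes tested. CPM is the count per 1000000 counts of the library, without TMM. Alternatives used DESeq2 1.42.0, other scaling and filters, and fewer libraries. The code was checked on simulated data with 200 genes changed. Of changes of 1.5, 2 and 4-fold, the unblocked fit recovered 20.9%, 64.2% and 84.8%, and the blocked fit 62.7%, 74.6% and 100%. False calls made up 9.6% of calls without the block and 8.14% with it, above what an adjusted p of 0.05 aims at.

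Replicates of both genotypes are numbered 1 to 3. Gene by gene deviations from each genotype's mean correlated by 0.336, 0.729 and 0.535 between libraries of the same number, all over 0.1, so a blocked fit stands beside the unblocked one. This pairing comes from the data, not the labels, and numbers 1 and 3 were not told apart, since wild type 1 and null 3 correlated by 0.354.

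The genes and lists were chosen with earlier results of these data known. Values per library are given for genes called in either fit, the most abundant of each role, the 10 with the smallest unadjusted p, Axin2, Lef1 and Nkd1, and the 5 that varied most between replicate numbers. Wnt7b is given in addition, chosen after its values were seen.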

Additional observations from a re-analysis of the deposited data

How the results depend on the processing

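Among Wnt pathway genes the count called was 0 in the reported fit, 1 with the replicate block, and 0 to 2 when replicates were left out, the 2 arising in the blocked fit without the pair numbered 1. Other scaling, filters, dispersion estimates and DESeq2 left it at 0. The count over the further pathway genes was 3 with the replicate block, 1 in DESeq2 with it, and 0 to 5 with replicates left out. Over all genes, 22 were called, against 597 with the replicate block, 65 with no filter but 1 count, 84 in DESeq2, 163 in DESeq2 with the block, 89 without both libraries numbered 2 (chosen after seeing the data), and 2 to 1193 with replicates left out. The cause was not tested.

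The median over the tested Wnt pathway genes stayed within 0.1 of 0, from -0.08 to 0.07 with replicates left out. Of the 24 genes followed singly, 16 kept their sign in every alternative. Some of these still moved widely when 1 library was left out: Fzd4 from -0.69 to -0.011, Fzd9 from -0.67 to -0.0090, Fzd10 from -1.29 to -0.27, Wnt5b from 0.16 to 0.57 and Celsr3 from -0.33 to -0.080. The other 8 lay between -0.05 and 0.20 as reported, none past the threshold. Axin2 changed sign with the block (0.00091), RLE size factors (0.0040), the stricter filter (0.00031), DESeq2 (0.0055) and DESeq2 with the block (0.0060), and ranged from -0.11 to 0.11 with replicates left out. Without both libraries numbered 2, Fzd2 was 0.047, Lef1 -0.054, Sfrp1 -0.068 and Wnt2b -0.29. Wnt2b was -0.094 in DESeq2 with the block. With replicates left out, Fzd2 ranged from -0.14 to 0.11, Lef1 from -0.077 to 0.32, Lrp6 from -0.085 to 0.031, Nkd1 from -0.15 to 0.070, Sfrp1 from -0.20 to 0.18, Tcf7l1 from -0.13 to 0.073 and Wnt2b from -0.36 to 0.45. Sp9 was called throughout, at -4.27 to -3.92. The replicate block changed the call of Fzd1, Gpc4, Ror2 and Celsr3 and of no other Wnt pathway gene. Genes under 1 CPM, such as most Wnts and all R-spondins, are limited by depth.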
